A study of Mus musculus with 60 samples.

Results

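The Egr and Nr4a immediate-early families are 7 of the 18088 genes in the deposited table: Egr1, Egr2, Egr3, Egr4, Nr4a1, Nr4a2 and Nr4a3, taken by symbol after matching Ensembl identifiers to GENCODE release M21. All 7 passed the filter on low values. Immediate-early genes are transcribed within minutes of a stimulus without the need for new protein synthesis. In cortical neurons the stimulus is usually synaptic activity, and calcium entering through NMDA-type glutamate receptors reaches these genes through ERK signalling to SRF and its Elk partners and through CREB and its CRTC coactivators. Egr proteins are zinc-finger transcription factors that bind GC-rich sites and induce their own corepressors, Nab1 and Nab2. Nr4a proteins are orphan nuclear receptors that bind DNA alone at the element called NBRE, and Nr4a1 and Nr4a2 also bind together with retinoid X receptors.

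Dissected prefrontal cortex of C57BL/6J mice, aged 25 postnatal days, was the source of the RNA. Animals without the mutation (wild type, WT) were compared with carriers of 1 copy of the Grin2b C456Y allele (Grin2b+/C456Y, called Het here), which changes the GluN2B subunit of the NMDA receptor. Every pup, controls included, was dosed through the milk of its mother from postnatal day 3 to 24, with vehicle, with fluoxetine (a serotonin reuptake inhibitor) or with lithium (a mood stabiliser that inhibits glycogen synthase kinase 3). Each of the 6 combinations of genotype and drug had 10 libraries, 5 female and 5 male, so there were 60 in all. The labels give neither the dose nor the amount that reached a pup. They also do not say whether replicates were separate animals or litters, so p-values measure the spread between these libraries, which may be technical.

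Recovered depth was 23901635 to 37769417 reads per library. Markers of cortical excitatory neurons were abundant in every library, with Slc17a7 at 38828 to 68012 normalised reads. Markers of 2 neighbouring regions varied widely between libraries: the summed level of 5 striatal markers ran from 1778 to 19345 and that of 5 olfactory bulb markers from 2847 to 17779. Grin2b itself was present at 13557 to 28378 normalised reads, and a level cannot show which allele a library carried. The Het fluoxetine libraries stood apart from the rest. In 10 libraries, namely all Het fluoxetine libraries except male replicate 1 and also WT vehicle female replicate 2, the mean log2 level of 16 pseudogenes was at most 3.15, and in the other 50 it was at least 4.60. These pseudogenes were picked for differing over 4-fold between Het and WT in fluoxetine. Across 12472 genes, the deviation of a Het fluoxetine library from the overall mean correlated negatively with transcript GC content in each of the 10 libraries (r from -0.47 to -0.15), whereas 2 of the 10 WT fluoxetine libraries were below 0 (from -0.01 to 0.40). Single libraries of other groups reached lower values: the lowest was -0.76 in WT lithium, where 5 of 10 were negative, -0.51 in WT vehicle (1 of 10), -0.35 in Het lithium (2 of 10) and -0.22 in Het vehicle (3 of 10). For Het fluoxetine, calls of members and of lists of pathway genes are therefore also given with terms for these libraries and with GC content corrected. Calls of cell type markers, pairs of members and the split by sex within Het fluoxetine are given without such a term.

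The genes lie on 7 chromosomes of GRCm38: Egr1 at 18:34859823-34864984 (plus strand), Egr2 at 10:67535475-67542188 (plus), Egr3 at 14:70077203-70082614 (plus), Egr4 at 6:85511121-85513589 (minus), Nr4a1 at 15:101254269-101274795 (plus), Nr4a2 at 2:57106830-57124003 (minus) and Nr4a3 at 4:48045153-48086447 (plus). None of them shares a chromosome with another.

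Levels between genes were compared per kilobase of the longest annotated transcript. In WT vehicle libraries, mean normalised reads per kilobase (± SD, n = 10) were 1633 ± 272 for Egr1, 1034 ± 155 for Egr3, 827 ± 129 for Nr4a1, 393 ± 99.0 for Egr4, 200.4 ± 43.2 for Nr4a3, 192 ± 45.1 for Nr4a2 and 89.0 ± 24.8 for Egr2. Neighbours in this order overlapped in range, apart from Nr4a1 and Egr4, between which there was a gap. In Het fluoxetine the order was changed, with Egr3 at 884 ± 178 above Egr1 at 834 ± 195 and Nr4a2 at 179 ± 44.8 above Nr4a3 at 120.3 ± 18.9, though these neighbours also overlapped.

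Sequence just upstream of the transcription start is shown for the 3 Nr4a genes, of which Nr4a3 fell further than Nr4a1 in fluoxetine, and for Egr2, the member with the largest response. The sequences are from RefSeq on GRCm38.p6, 5′ to 3′ on the strand of the gene. Capitals mark a CRE half-site (TGACG, or CGTCA on the other strand, the core of CREB-bound elements), the CArG box to which SRF binds, and the Egr site (GCGGGGGCG or GCGTGGGCG). The Egr2 window is chr10:67537620-67537868, Nr4a1 chr15:101266596-101266845, Nr4a2 chr2:57124004-57124253 and Nr4a3 chr4:48045055-48045152. The Nr4a3 sequence stops at the first annotated exon base.
Egr2: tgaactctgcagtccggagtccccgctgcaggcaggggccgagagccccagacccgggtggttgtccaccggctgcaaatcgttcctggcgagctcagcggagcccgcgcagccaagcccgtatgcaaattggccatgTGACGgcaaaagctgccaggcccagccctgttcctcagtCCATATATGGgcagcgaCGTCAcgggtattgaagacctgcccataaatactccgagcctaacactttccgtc
Nr4a1: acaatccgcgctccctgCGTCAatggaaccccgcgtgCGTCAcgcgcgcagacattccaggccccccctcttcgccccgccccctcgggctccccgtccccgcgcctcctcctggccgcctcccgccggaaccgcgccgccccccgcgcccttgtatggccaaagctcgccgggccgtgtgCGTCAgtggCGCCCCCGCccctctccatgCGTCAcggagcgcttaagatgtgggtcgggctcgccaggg
Nr4a3: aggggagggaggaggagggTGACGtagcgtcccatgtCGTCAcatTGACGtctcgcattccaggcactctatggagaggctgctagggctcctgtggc
Nr4a2: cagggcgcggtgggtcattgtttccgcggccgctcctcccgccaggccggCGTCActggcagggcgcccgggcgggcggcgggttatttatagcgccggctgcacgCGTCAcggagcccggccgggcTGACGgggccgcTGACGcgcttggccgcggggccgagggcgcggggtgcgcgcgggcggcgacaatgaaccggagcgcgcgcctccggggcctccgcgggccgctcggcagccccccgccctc
In the 250 bases before the RefSeq start, both strands were searched. Nr4a1, Nr4a2 and Nr4a3 each held 4 CRE half-sites, of which 3 of those of Nr4a3 lie in the part printed. At least 4 were found in 0.137% of the 32841 promoter windows of the same length in the RefSeq table. Egr2 held 2 half-sites and 1 CArG box, and Egr4 held 2 half-sites. At least 2 half-sites were found in 3.90% of windows and a CArG box in 1.47%. Nr4a1 also held 1 Egr site, found in 3.06% of windows. No full CRE (TGACGTCA, in 1.55% of windows) and no NBRE (AAAGGTCA, in 1.34%) was found in these 5 windows. Egr1 and Egr3 were not searched.

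**Figure D1:**
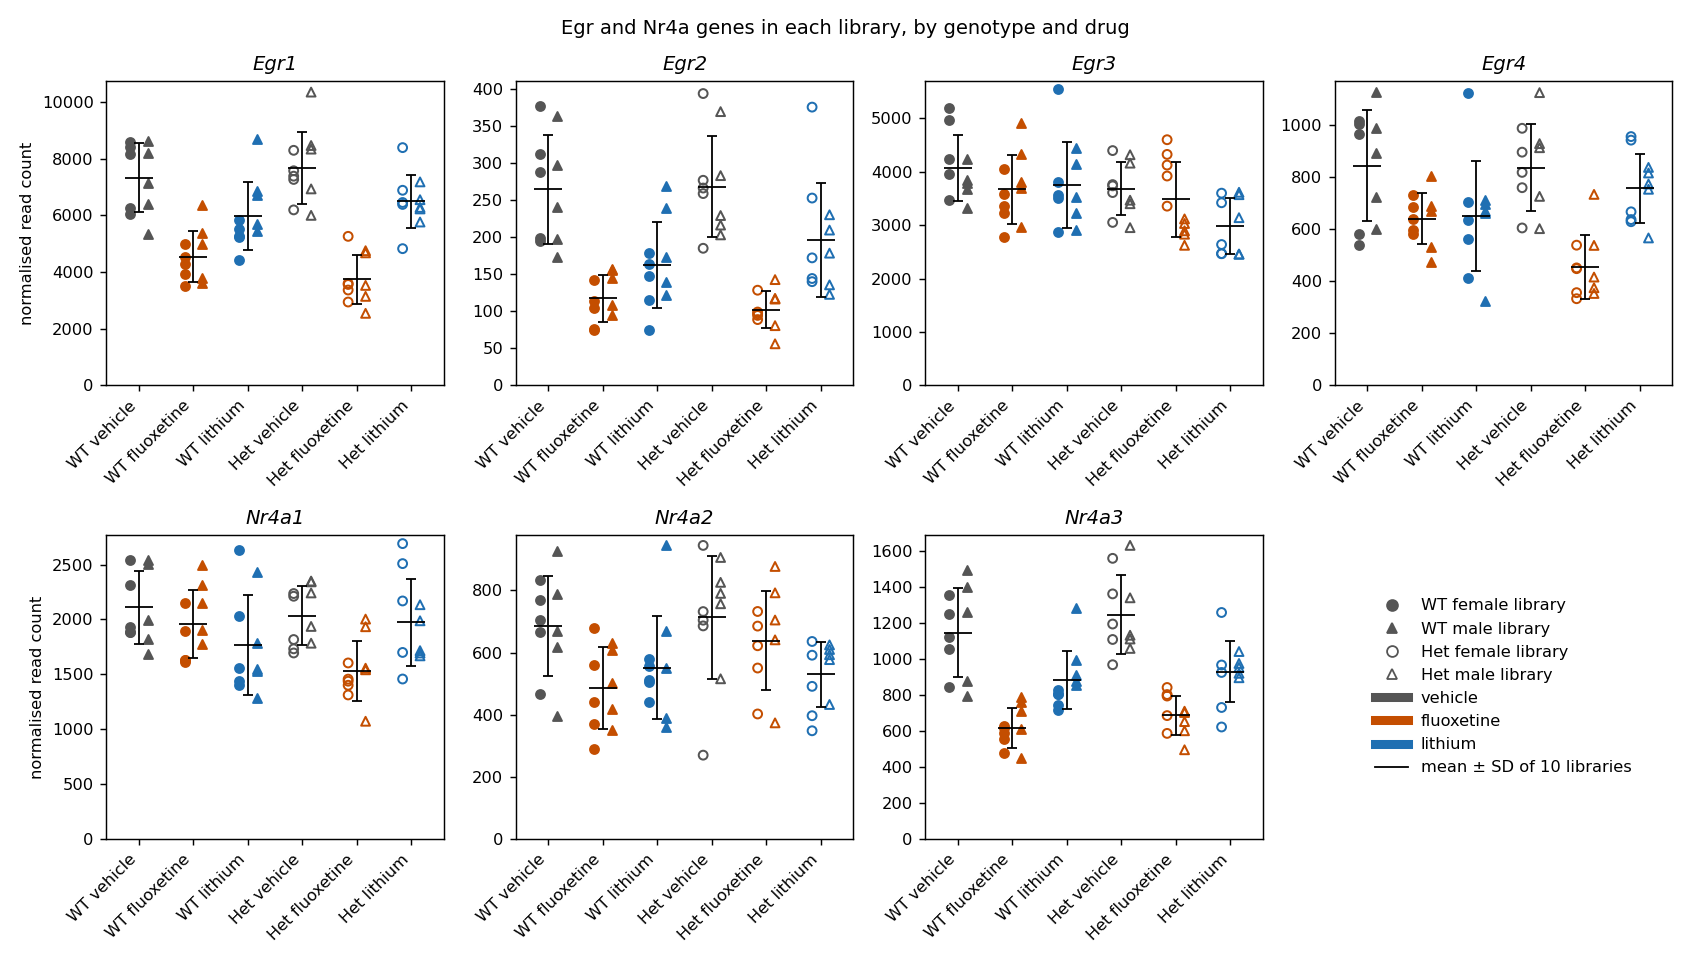
Normalised read counts (linear axis from 0) of the 7 genes in each library, by genotype and drug, with circles for female and triangles for male libraries, filled symbols for WT, open symbols for Het, and the mean ± SD of the 10 libraries. Egr2 and Nr4a3 in fluoxetine lie below all vehicle libraries of the same genotype, and Egr3 overlaps in all groups.

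In WT mice 3 of the 7 genes were lower in fluoxetine than in vehicle: Egr1, a factor needed for lasting synaptic plasticity, Egr2, best known for hindbrain patterning and peripheral myelination, and Nr4a3. Of all 17810 genes tested, 4.08% were lower in this comparison. Egr2 had normalised reads of 173 at the lowest, 264 at the median and 376 at the highest in vehicle, and 75.2, 111 and 156 in fluoxetine. The 10 fluoxetine libraries all lay below the 10 vehicle libraries. The level under fluoxetine was 44.7% of vehicle (log2 difference -1.16 ± 0.19, SE; limma adjusted p = 2.948e-05).

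Nr4a3 in WT ran from 796 through a median of 1187 to 1496 in vehicle and from 448 through 614 to 790 in fluoxetine. Here too no fluoxetine library reached the lowest vehicle library, and the level was 54.4% of vehicle (-0.88 ± 0.11, limma adjusted p = 8.76e-07). Ranges of 10 against 10 libraries that did not overlap, with fluoxetine lower, were seen for 2 members and for 0.253% of all genes tested. Egr1 ran from 5355 through 7666 to 8629 in vehicle and from 3522 through 4415 to 6364 in fluoxetine. The ranges overlapped, every fluoxetine library was below the vehicle mean of its sex, and the level was 61.8% of vehicle (-0.69 ± 0.12, limma adjusted p = 5.296e-05).

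The other 4 genes did not pass the test in WT fluoxetine. Nr4a2, a receptor gene that also marks neurons of the claustrum and the deepest cortical layer, ran from 397 through 688 to 925 in vehicle and from 289 through 471 to 679 in fluoxetine. These ranges overlapped, and the difference was -0.51 ± 0.19 (limma adjusted p = 0.0825). It passed when WT fluoxetine female replicate 1 or WT vehicle male replicate 4 was left out. Egr4 differed by -0.37 ± 0.16 (limma adjusted p = 0.153), Egr3 by -0.16 ± 0.10 (0.388) and Nr4a1 by -0.11 ± 0.12 (0.627). Egr4 passed with GC content corrected (-0.43, limma adjusted p = 0.00318), which made 4 members lower. The median difference of the 7 genes was -0.51, and that of all genes tested was 0.00.

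In Het mice 5 of the 7 genes were lower in fluoxetine: Egr1, Egr2, Egr4, Nr4a1 and Nr4a3. In this comparison 19.9% of all genes tested were lower. Egr1 ran from 6003 through a median of 7482 to 10356 in Het vehicle and from 2544 through 3547 to 5262 in Het fluoxetine. The ranges did not overlap, and the level was 48.1% of vehicle (-1.06 ± 0.12, limma adjusted p = 2e-09). Egr2 ran from 185 through 262 to 393 in vehicle and from 56.0 through 97.7 to 143 in fluoxetine. No fluoxetine library reached the vehicle range, and the level was 38.2% of vehicle (-1.39 ± 0.19, limma adjusted p = 2.02e-07). Nr4a3 ran from 969 through 1164 to 1632 in vehicle and from 496 through 695 to 842 in fluoxetine, again apart, at 55.3% of vehicle (-0.85 ± 0.11, limma adjusted p = 1.53e-07). These 3 members did not overlap with vehicle, as was true of 2.40% of all genes tested.

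Egr4, the Egr gene that lacks the Nab-binding domain, ran from 602 through 857 to 1124 in Het vehicle and from 333 through 432 to 733 in Het fluoxetine. The ranges overlapped through 1 fluoxetine library, male replicate 1, and the level was 53.9% of vehicle (-0.89 ± 0.16, limma adjusted p = 2.477e-05). Nr4a1, also known as Nur77, ran from 1695 through 2074 to 2350 in vehicle and from 1073 through 1499 to 2004 in fluoxetine, with overlap, at 74.8% of vehicle (-0.42 ± 0.12, limma adjusted p = 0.00331). Egr3 (-0.10 ± 0.10, limma adjusted p = 0.484) and Nr4a2 (-0.14 ± 0.19, 0.603) did not pass.

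Since 9 of the 10 Het fluoxetine libraries were low in the pseudogenes, male replicate 1 is the 1 library of this group outside that set. Its mean log2 level of the pseudogenes, 5.65, was still just below the lowest Het vehicle library (5.69), and its r with GC content was -0.15. Its Egr1 level was 4755, its Egr2 level 143 and its Nr4a3 level 711, each below the lowest Het vehicle library (6003, 185 and 969). Its Nr4a1 level of 2004 and its Egr4 level of 733 lay within the Het vehicle range and above all 9 other Het fluoxetine libraries. With GC content corrected, 4 members remained lower in Het fluoxetine (10.4% of all genes), Egr1 at -0.88, Egr2 at -1.35, Egr4 at -0.53 and Nr4a3 at -0.88, while Nr4a1 did not pass (-0.25, limma adjusted p = 0.120). Egr4 has the most GC-rich transcript of the 7, at 68.2%, against 47.9% to 57.3% for the others.

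With a term for the 11 libraries that have no read of the pseudogene Rps6-ps4, 2 members passed (1.24% of all genes): Egr1 (-0.83, limma adjusted p = 0.0124) and Nr4a3 (-0.80, 0.0157). With a term for the 10 libraries low in the 16 pseudogenes, none of the 7 passed, and 0.146% of all genes were lower. The fitted differences under that term were -0.70 for Egr1, -0.85 for Egr2, -0.22 for Egr4, -0.14 for Nr4a1 and -0.76 for Nr4a3, with standard errors near or above 0.20 because the Het estimate then rests on male replicate 1 and on WT vehicle female replicate 2, the 1 low library outside Het fluoxetine. Whatever sets these libraries apart and the effect of fluoxetine in Het cannot be told apart in this design.

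**Figure D2:**
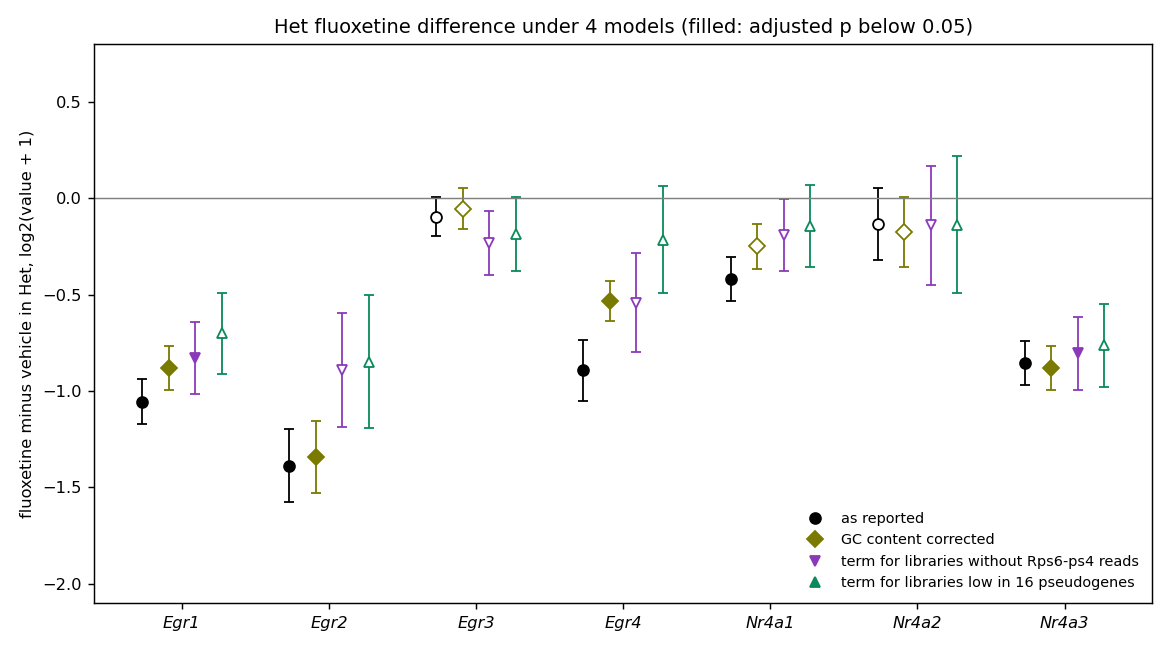
Fluoxetine minus vehicle in Het on the log2(value + 1) scale, with its standard error, for the 7 genes under 4 models; filled symbols passed at an adjusted p below 0.05. Differences of Egr1 and Nr4a3 lay between -1.06 and -0.70 in the 4 models, though neither passed with the term for low libraries, and that of Egr4 went from -0.89 to -0.22.

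In lithium fewer of the genes passed. In WT 2 of 7 were lower, against 9.87% of all genes tested: Egr2 and Nr4a3. Egr2 ran from 74.2 through 156 to 269 in WT lithium, overlapping with vehicle, at 60.1% of it (-0.73 ± 0.19, limma adjusted p = 0.00460). Nr4a3 ran from 716 through 842 to 1286, also overlapping, at 77.7% of vehicle (-0.36 ± 0.11, limma adjusted p = 0.0198). It no longer passed without WT vehicle male replicate 3. No member was free of overlap (0.124% of all genes were). In the 20 fits that left out 1 library, Egr1 and Egr4 passed in 4 fits each and Nr4a1 in 3. Without the 10 low libraries, 4 members were lower in WT lithium, the added ones being Egr1 (-0.33, limma adjusted p = 0.0252) and Egr4 (-0.47, 0.0296), and with the term for those libraries 5 were, against 11.4% of all genes. In that comparison the only low library is WT vehicle female replicate 2, whose Egr4 level of 540 was the lowest of the WT vehicle group.

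In Het lithium only Nr4a3 was lower, 1 of 7 against 0.500% of all genes tested. Nr4a3 ran from 623 through 940 to 1259 in Het lithium and overlapped with Het vehicle, at 74.4% of it (-0.43 ± 0.11, limma adjusted p = 0.0493). This call was marginal, since it was lost in 18 of the 20 fits that left out 1 library, with nearly the same difference. Without overlap were 0 members and 0.0225% of all genes. The other 6 differences ran from -0.49 for Egr2 to -0.06 for Nr4a1, and none was above 0. In all 4 comparisons of a drug with vehicle, all 7 differences were below 0. The comparisons of fluoxetine and lithium share their vehicle libraries within a genotype, so their signs are not independent.

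**Figure D3:**
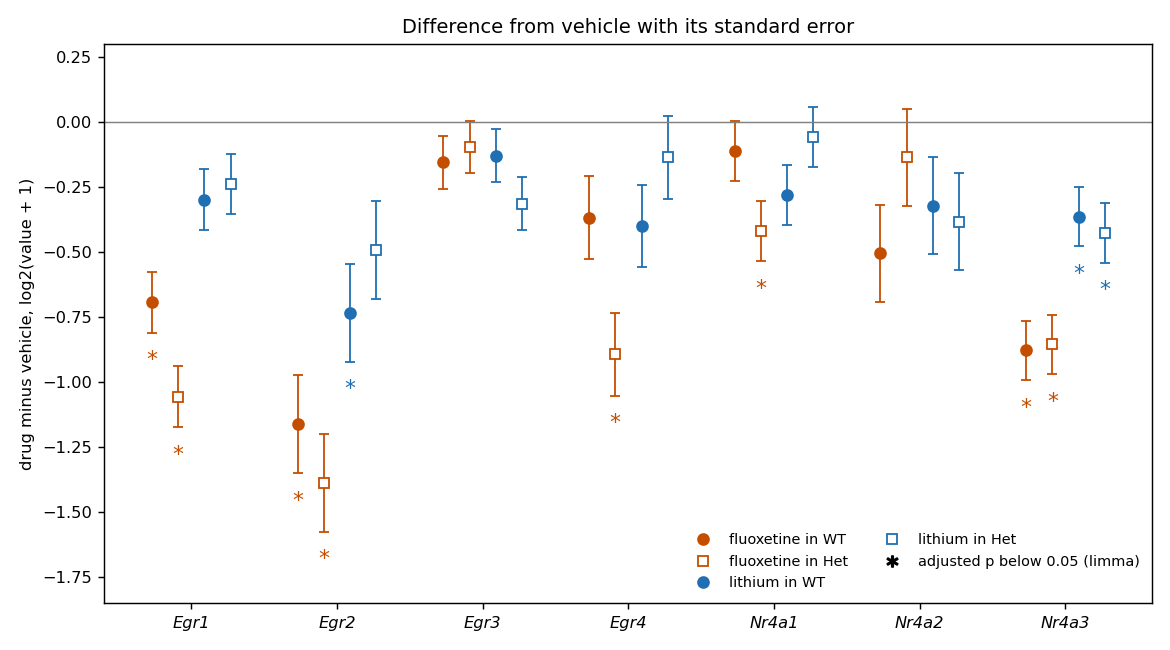
Drug minus vehicle on the log2(value + 1) scale, with its standard error, for each gene and each genotype; asterisks mark an adjusted p below 0.05 (limma). Fluoxetine differences reach -1.39 for Egr2 in Het, lithium differences reach -0.73 for Egr2 in WT, and Egr3 stays between -0.31 and -0.10.

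Fluoxetine libraries were also compared with lithium libraries directly. In WT, Egr1 (-0.40 ± 0.12, limma adjusted p = 0.0188) and Nr4a3 (-0.51 ± 0.11, 0.00249) were lower in fluoxetine, 2 of 7 against 7.14% of all genes. Nr4a1 was listed higher in fluoxetine (0.17 ± 0.12) but did not pass (limma adjusted p = 0.333). In Het, 5 of 7 were lower in fluoxetine against 16.7% of all genes: Egr1 (-0.82 ± 0.12), Egr2 (-0.90 ± 0.19), Egr4 (-0.76 ± 0.16), Nr4a1 (-0.36 ± 0.12) and Nr4a3 (-0.43 ± 0.11), with limma adjusted p from 1.225e-06 to 0.0134. Egr3 was higher in fluoxetine (0.26, limma adjusted p = 0.0477) when Het lithium female replicate 2 was left out. None of the 5 passed with the term for low libraries (-0.46, -0.36, -0.08, -0.09 and -0.34 in the same order) or with the Rps6-ps4 term (-0.59, -0.40, -0.41, -0.13 and -0.38).

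Without drug, no difference between the genotypes was detected for these genes. In vehicle none of the 7 passed limma or edgeR between Het and WT, 0 had an unadjusted p below 0.05, and 0.590% of all genes were called. Differences ran from -0.14 for Egr3 to 0.13 for Nr4a3. In lithium none passed either tool, 1 (Egr3, -0.33 ± 0.10, limma adjusted p = 0.201) had an unadjusted p below 0.05, and 0.0281% of all genes were called. In fluoxetine 3 were lower in Het, against 19.9% of all genes: Egr1 (-0.29 ± 0.12, limma adjusted p = 0.0409), Egr4 (-0.52 ± 0.16, 0.00782) and Nr4a1 (-0.36 ± 0.12, 0.0111). The call of Egr1 held in 7 of the 20 fits that left out 1 library. None of the 3 passed with GC content corrected, with the Rps6-ps4 term or with the term for low libraries, where Egr1 (0.063) and Egr4 (0.16) changed sign. Het fluoxetine and the low libraries are nearly the same set, so the 2 cannot be told apart here.

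Whether a drug acted differently in the 2 genotypes was tested by the interaction. For fluoxetine none of the 7 passed in limma or edgeR, where 24.0% of all genes were called in either direction, and 2 had an unadjusted p below 0.05: Egr1 (-0.36 ± 0.16, limma adjusted p = 0.0994) and Egr4 (-0.52 ± 0.23, 0.0816). Egr4 passed (-0.55, limma adjusted p = 0.0314) when the 3 libraries with the largest residuals were left out, and also without Het fluoxetine male replicate 1 alone (-0.61, 0.0373). Egr1 passed without Het fluoxetine female replicate 3 (-0.43, limma adjusted p = 0.0467). Nr4a3, lower in fluoxetine in both genotypes, had an interaction of 0.02 ± 0.16. For lithium none passed either tool, 0 had an unadjusted p below 0.05, and 0.0674% of all genes were called. A larger number of members called in Het than in WT fluoxetine is therefore not shown to be a difference between genotypes.

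The sexes were also examined apart. In WT fluoxetine, Egr2 was at -1.41 in females and -0.92 in males, and Nr4a3 at -0.96 and -0.79. In Het fluoxetine, Egr1 was at -0.99 in females and -1.12 in males. With the sexes together, the ranges of these genes already lay apart from vehicle. Their lack of overlap within each sex follows from that and adds nothing. In each of the 7 tests for a sex difference (4 of a drug effect and 3 of a genotype effect), none of the members passed in limma or edgeR. Only 2 gene-by-test results had an unadjusted p below 0.05 in limma, both of Egr3. With 7 genes in 7 tests, that is no more than a level of 0.05 gives by chance. All genes together had 9.64% called for lithium in WT and 0.0% in each of the 6 others. The calls for lithium in WT depended on the setting. They were 1716 genes in the main test and 1881 in edgeR. Without the 3 libraries with the largest residuals 1 gene was called, and with only the groups compared 0 were.

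Egr3, which acts in muscle spindle development and in cortical responses to activity, had the smallest p for a difference between the sexes. In Het fluoxetine its female values were 4324, 3356, 4599, 4124 and 3920, and its male values 3117, 3031, 2623, 2830 and 2894. Every female library was above every male library. Egr3 was picked here by its p, and the share of all genes that separate in this way was not counted. In WT fluoxetine the female values were 3357, 3574, 4058, 3223 and 2779 and the male values 2965, 4338, 4921, 3816 and 3688, which overlapped. The difference between the sexes in the genotype effect under fluoxetine was 0.69 ± 0.20 with an unadjusted p of 0.0013, and it did not pass adjustment (limma adjusted p = 0.193).

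Within the families the responses were unequal. Differences between the drug responses of 2 members were tested by exact permutation of the drug label within each sex (two-sided, 63504 permutations, 21 pairs in each of 4 comparisons with vehicle, adjusted over all 84). The pairs were tested after the values were seen. Fluoxetine responses differed for 11 of 21 pairs in WT and for 16 of 21 in Het, and lithium responses for 3 and 2. Egr2 fell further than Egr3 in WT (-1.16 against -0.16, exact permutation adjusted p = 0.00113) and in Het (-1.39 against -0.10, 0.000378). Nr4a3 fell further than Nr4a1 in both genotypes, by 0.77 in WT (exact permutation adjusted p = 0.000378) and 0.44 in Het (0.00306). In Het fluoxetine the pairs were tested without a term for the low libraries, so an effect of the drug cannot be told apart there. Egr2 and Nr4a3 were the 2 members called lower in the main test in fluoxetine in both genotypes and in lithium in WT. They are also in the lower part of the level order. Nr4a2, which lies between them there, passed in none of the 4 comparisons with vehicle. Egr1, the most abundant, fell with Egr2 and Nr4a3 in fluoxetine.

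Among libraries of the same group, Egr1, Egr2 and Nr4a1 rose and fell together, as did Egr1 and Egr4. After the 12 group means were subtracted, Pearson's r over the 60 libraries was 0.77 for Egr2 and Nr4a1, 0.75 for Egr1 and Egr2, 0.71 for Egr1 and Egr4, 0.68 for Egr1 and Nr4a1 and 0.62 for Egr2 and Nr4a3. These are descriptions, and the libraries share their scaling. Other pairs were weaker: Nr4a3 was at 0.36 with Nr4a1 and at 0.20 with Egr4, and Egr3 was between 0.19 and 0.38 with Egr1, Egr2, Egr4, Nr4a1 and Nr4a3. Nr4a2 was at 0.35 with Nr4a3, about as close as Nr4a1 was. Of the 21 pairs 16 had a positive r, with a median of 0.35, and the 5 negative ones all involved Nr4a2, down to -0.31 with Nr4a1. Without the 10 low libraries the values were close (0.76 for Egr2 and Nr4a1, -0.31 for Nr4a1 and Nr4a2).

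**Figure D4:**
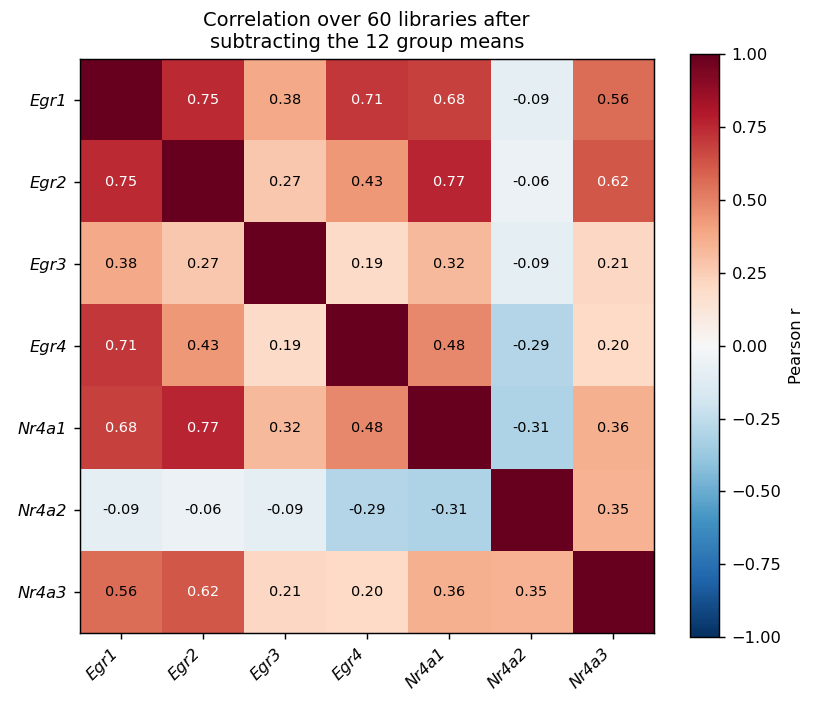
Pearson's r between each pair of the 7 genes over 60 libraries after subtraction of the 12 group means, on a colour scale from -1 to 1. Egr1, Egr2 and Nr4a1 form the most alike trio (0.68 to 0.77), and Nr4a2 is at or below 0 with all but Nr4a3 (0.35).

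Levels of the members also moved with markers of cell types, most closely that of Nr4a2. Within groups its level correlated with the summed level of 5 oligodendrocyte markers (r = 0.76, and 0.76 without the low libraries), with 5 striatal markers (0.49) and with 9 markers of claustrum and cortical layer 6b (0.44), and inversely with 6 excitatory neuron markers (-0.58). The gene most like it was Bcl11b (0.80), a factor of deep-layer and striatal projection neurons. For the other 6 genes the oligodendrocyte r ran from -0.27 to 0.20. Egr4 was at 0.50 with excitatory neuron markers and at -0.41 with those of claustrum and layer 6b, Egr1 at -0.40 with 5 astrocyte markers and Egr3 at -0.41 with 5 meningeal fibroblast markers. In bulk RNA, fewer cells of a type and less RNA per cell cannot be told apart. In the comparisons with vehicle no oligodendrocyte or striatal marker passed. The median difference of the oligodendrocyte markers was -0.04 in WT fluoxetine, 0.02 in Het fluoxetine, -0.30 in WT lithium and -0.33 in Het lithium. Of 9 claustrum and layer 6b markers, 2 were higher in Het fluoxetine (19.1% of all genes were), and 2 were higher (9.34%) and 1 lower in WT lithium. Of 5 endothelial markers 3 were lower in WT fluoxetine, 4 in Het fluoxetine, 5 in WT lithium and 1 in Het lithium. In the same order 4.08%, 19.9%, 9.87% and 0.500% of all genes were lower. In WT lithium 5 of 5 microglial, 4 of 5 astrocyte and 4 of 5 meningeal fibroblast markers were also lower, and in Het fluoxetine 3 of 6 excitatory neuron markers were. Marker calls in Het fluoxetine were made without a term for the low libraries and without GC correction. The summed level of the 5 endothelial markers ran from 4609 to 5912 in WT vehicle and from 3578 to 5421 in WT fluoxetine. Within groups it correlated with the 7 genes at -0.19 to 0.09. The part of these cell types in the results was not tested.

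By Pearson's r over 60 libraries, the 10 genes most like the mean of the 7 within groups were Midn (0.78), Fos (0.76), Arc (0.75), Junb (0.74), Irs2 (0.74), Gpr3 (0.73), Gadd45b (0.73), Klf10 (0.69), Plk3 (0.66) and Gadd45a (0.66). Of these, 6 are on the list of other activity-induced genes used below, and 9 were again among the first 10 without the low libraries. For single members the most alike genes were Midn for Egr1 (0.83), Fos for Egr2 (0.80), Anxa11 for Egr3 (0.69), Ypel3 for Egr4 (0.85), Arc for Nr4a1 (0.93) and Klf10 for Nr4a3 (0.66). Over the 12 group means, the genes most like the 7 were Nfil3 (0.97), Irf2bpl (0.96), Efnb1 (0.96), Inhbb (0.96) and Itpkc (0.96).

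Other activity-induced genes were also lower in fluoxetine. Of 31 genes on that list, 10 were lower and 0 higher in WT fluoxetine, with a median difference of -0.22 against 0.00 over all genes, of which 4.08% were lower and 4.35% higher. The AP-1 genes Fosl2 (-0.77 ± 0.13), Fosb (-0.99 ± 0.19) and Fos and the repressor Klf10 (-0.38 ± 0.09) led, with limma adjusted p of at most 0.0027. In Het fluoxetine 16 were lower and 3 higher, where 19.9% of all genes were lower and 19.1% higher, led by Plk3 (-0.54 ± 0.07), Fosb (-1.22 ± 0.19), Fos (-1.03 ± 0.18) and the clock gene Per1 (-0.45 ± 0.08). The 3 higher genes were Tiparp (0.45), Pcsk1 (0.19) and Plk2 (0.15). With GC content corrected the Het counts were 14 lower and 0 higher, with the Rps6-ps4 term 2 and 0, and with the term for low libraries 0 and 0.

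In WT lithium 7 of the 31 were lower and 2 higher (9.87% of all genes were lower and 9.34% higher). Klf10 (-0.55 ± 0.09), the synaptic gene Arc (-1.03 ± 0.22), the kinase gene Sik1 (-0.43 ± 0.10) and Junb (-0.49 ± 0.13) were lower, and Ppp1r15a (0.19) and the neuropeptide precursor gene Vgf (0.35) were higher. In Het lithium 1 of 31 was lower, Klf10 (-0.46 ± 0.09, limma adjusted p = 0.0043), and 0 were higher. Of all genes 0.5% were lower and 0.483% higher there.

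The corepressor Nab2, itself an Egr target, was lower in all 4 comparisons: -0.36 ± 0.08 in WT fluoxetine, -0.66 ± 0.08 in Het fluoxetine, -0.42 ± 0.08 in WT lithium and -0.31 ± 0.08 in Het lithium, with limma adjusted p of at most 0.0429. In Het fluoxetine the difference of Nab2 was -0.43 with GC content corrected and -0.62 with the Rps6-ps4 term, and it did not pass with the term for low libraries (-0.54, limma adjusted p = 0.123). Nab1 was lower in WT fluoxetine (-0.26 ± 0.06) and WT lithium (-0.16 ± 0.06). Of the retinoid X receptor genes Rxra, Rxrb and Rxrg, Rxrb was lower in WT lithium (-0.16 ± 0.05). In this list of 5 corepressor and receptor genes the counts lower were 2, 1, 3 and 1 in the order given, with 0 higher in each. Of all genes 4.08%, 19.9%, 9.87% and 0.5% were lower in the same order, so 1 of 5 in Het fluoxetine is near the share of all genes. With GC content corrected 2 of the 5 were higher in Het fluoxetine, as were 1944 of all 17810 genes.

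Reported targets of Egr factors did not move as 1 group. Of 10, 3 were lower and 0 higher in WT fluoxetine (Nab1, Nab2 and Gadd45b, at -0.36), and 3 lower and 2 higher in Het fluoxetine, where the shares of all genes were 19.9% and 19.1%. There Nab2, Arc (-0.94 ± 0.22) and Gadd45b (-0.50 ± 0.12) were lower, while the serotonin receptor gene Htr2a (0.57 ± 0.07) and the GABA-A receptor gene Gabra4 (0.33 ± 0.06) were higher. In WT lithium Nab2, Arc and Nab1 were lower and 0 higher, and in Het lithium Nab2 was lower. Of all genes 4.08% were lower in WT fluoxetine, 9.87% in WT lithium and 0.5% in Het lithium. With GC content corrected 4 of the 10 were lower and 2 higher in Het fluoxetine, as were 1858 and 1944 of all 17810 genes. With the term for low libraries none of the 10 passed in Het fluoxetine, in either direction, and with the Rps6-ps4 term Nab2 was lower and Htr2a (0.45) higher. Medians were -0.13, -0.06, -0.05 and 0.00 in these 4 comparisons.

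Genes of the signalling routes that switch the families on were also examined. In WT fluoxetine, of 17 upstream transcription factor genes, Elk3 was lower (-0.24 ± 0.06). Crtc2 (0.19 ± 0.06) and Mrtfa (0.18 ± 0.05), coactivators of CREB and SRF, were higher. None of the 20 kinase and phosphatase genes tested passed limma. Of all genes 4.08% were lower and 4.35% higher in this comparison. In WT lithium Srf (-0.27 ± 0.07) and Elk3 (-0.20 ± 0.06) were lower and 5 of 17 were higher, led by Mrtfb (0.23 ± 0.04), where 9.87% of all genes were lower and 9.34% higher. The ERK gene Mapk3 (-0.22 ± 0.06) and Rps6ka1 (-0.29 ± 0.07), which encodes a kinase activated by ERK, were lower there. Mapk3 was the 1 of 20 lower in Het lithium (-0.27 ± 0.06), where 0.5% of all genes were lower. In Het fluoxetine 7 of the 17 factor genes were lower, led by Srf (-0.48 ± 0.07), and 4 higher, and 4 of 20 kinase and phosphatase genes were lower and 9 higher. Of all genes 19.9% were lower and 19.1% higher there, so 4 of 17 higher and 4 of 20 lower are near the share of all genes. With GC content corrected the counts were 5 lower and 2 higher of 17, and 0 lower and 1 higher of 20. The Het counts fell to 0 in both directions with the term for low libraries and with the Rps6-ps4 term.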

How the data were processed

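Prefrontal cortex RNA-seq comprised 60 libraries, whose kit marks the strand, per the labels. The submitters' processing notes name GRCm38, Salmon 0.11.2, R 3.6.0 and DESeq2 1.19.11 without saying what each did. Use of the strand in counting was not given, so reads of overlapping antisense genes cannot be set aside. The table that the authors deposited has a signal for each gene, called normalised read counts here. They are whole multiples of 1 step per library (100% within 0.001), so the authors divided read counts by a size factor, and dividing by the step recovered whole reads.

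The main test was limma 3.58.1 (R 4.3.3; trend, robust) on log2(value + 1) for the 17810 genes that reached a value of 10 in 5 or more libraries, as a model of the 12 group means that left 48 degrees of freedom for residuals. Contrasts averaged the sexes, and a call needed a p below 0.05 after Benjamini-Hochberg adjustment over all genes. A difference on this scale slightly understates the change of low genes. Standard errors are from the model. A count test (edgeR 4.0.16, 17776 genes) was run on the recovered reads. The fit was tested on simulated data. Other settings were size factors by trimmed mean, no filter, a pseudocount of 5, GC correction by loess (span 0.3), terms for libraries standing apart, a replicate block and leaving out each library.

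Members and lists were chosen with earlier results of these data known. Named list genes are at most the 4 called ones with the smallest p per direction. Genes of like pattern are the 10 (within groups) or 5 (group means) with the highest r. GENCODE release M21 gave symbols for 18077 of the 18088 identifiers. Promoters were searched in the 250 bases before the RefSeq start (GRCm38.p6). For Egr2, with 5 windows in the table, that at which most GENCODE transcripts start was used.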

Additional observations from a re-analysis of the deposited data

Results flagged for a closer look

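Within groups of 5 libraries, 4 of 84 tests for a library far from the other 4 (Dixon's test, 95% level, critical value 0.71) were positive, about the 1 in 20 that chance gives. Het fluoxetine female replicate 3 was highest for Egr1 at 5262 normalised reads, against 3601 for the next library, and for Egr2 at 128, against 98.8. WT lithium male replicate 5 was lowest for Egr4 at 324, against 662 for the next. The same library had the highest Nr4a2 (945) and Nr4a3 (1286) of WT lithium. Its deviation from the overall mean had the lowest r with transcript GC content of all libraries (-0.76), and its residual spread was the largest (0.53 on the log2 scale). Het lithium male replicate 2 was lowest for Nr4a2 at 433, against 577 for the next.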

How the results depend on the processing

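Counts of members called (adjusted p below 0.05, either direction) under other settings differed from those reported as follows. For fluoxetine in Het (5) they were 0 with the term for low libraries and 2 with the Rps6-ps4 term. For fluoxetine minus lithium in Het (5) they were 0 with either term. For Het minus WT in fluoxetine (3) they were 0 with either term and with GC correction. For lithium in WT (2) they were 5 with the term for low libraries and 4 without those libraries. For lithium in Het (1) they were 0 with the Rps6-ps4 term, with no filter, with a pseudocount of 5, with the replicate block, with only the groups compared, and when either the low libraries or the 3 of largest residual spread were left out. For the genotype-by-fluoxetine interaction (0) it was 1 when those 3 were left out. Changes of 1 were, with GC correction, from 3 to 4 for fluoxetine in WT and from 5 to 4 for fluoxetine in Het and for fluoxetine minus lithium in Het; from 3 to 2 for Het minus WT in fluoxetine with edgeR or only the groups compared; and from 2 to 3 for lithium in WT without the 3 libraries of largest residual spread. Pairs of members that differed in Het lithium (2) were 4 with GC correction, those in WT lithium (3) were 4 and those in WT fluoxetine (11) were 13. The cause was not tested.

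Leaving out 1 library at a time, members called were 3 to 4 for fluoxetine in WT, 5 to 5 in Het, 1 to 4 for lithium in WT, 0 to 1 in Het, 2 to 2 for fluoxetine minus lithium in WT, 5 to 6 in Het, 2 to 3 for Het minus WT in fluoxetine and 0 to 1 for the interaction. Pairs that differed were 10 to 13 and 14 to 16 in WT and Het fluoxetine, and 1 to 4 and 2 to 4 in WT and Het lithium.

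Signs changed as follows. For Egr4, fluoxetine minus lithium in WT went from 0.031 to -0.0079 with the Rps6-ps4 term, -0.22 with GC correction and -0.0199 in edgeR. For Het minus WT in fluoxetine, Egr1 (from -0.29 to 0.063), Egr2 (from -0.19 to 0.35) and Egr4 (from -0.52 to 0.16) changed sign with the term for low libraries, and Egr2 (0.30) with the Rps6-ps4 term. For the interaction, Egr1 (from -0.36 to 0.0315), Egr2 (0.37), Egr3 (-0.041) and Egr4 (from -0.52 to 0.23) changed sign with the former, Egr2 (0.33) and Egr3 (-0.091) with the latter, and Nr4a3 (-0.0187) with GC correction. Leaving out 1 library at a time moved Nr4a1 in Het lithium between -0.108 and 0.0025, Egr3 (-0.0745 to 0.0444) and Egr4 (-0.0764 to 0.1292) in fluoxetine minus lithium in WT, and the interaction of Nr4a3 between -0.0441 and 0.0865.

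Replicate numbers did not pair the libraries. After group means were subtracted, libraries of different groups with the same number had a median r of 0.0004 over 330 pairs, against 0.0008 over 1320 other pairs, and 10 of 60 correlated best with their own number. With the replicate block, the members lower in fluoxetine stayed at 3 in WT and 5 in Het. Depth did not limit these genes, whose lowest recovered count was 50 reads, of Egr2. Results in Het fluoxetine could not be refitted without the low libraries, since 1 male and no female library would remain.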
